A study of Mus musculus with 20 samples.

Results

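The 4 mature miRNAs described here, mmu-miR-10a-5p, mmu-miR-10b-5p, mmu-miR-196a-5p and mmu-miR-196b-5p (written below without the species prefix), are encoded inside the Hox gene clusters of the mouse. They were taken by name from a table of 1915 mature miRNA names, of which 1191 had at least 1 read. Small RNA was sequenced from the serum of female mice in 4 groups of 5 libraries: normal and dwarf mice at 5 to 6 months (young) and normal and dwarf mice at 21 to 22 months (old). The strain is labelled Ames dwarf (heterogeneous genetic background) in all 4 groups, normal mice included, and no allele or other agent is named. Ames dwarf mice are small and live longer than normal mice. The series asks whether circulating small RNAs change with age differently in the 2 genotypes. Nothing in the labels states that each library is from its own mouse. All p-values therefore refer to the spread between these libraries, which may be technical.

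Hox genes encode transcription factors that set identity along the head-to-tail axis, and they lie in 4 clusters in mammals. The miR-10 and miR-196 genes sit between Hox genes and are transcribed in body domains like those of their neighbours. The miR-196 miRNAs pair almost perfectly with the Hoxb8 mRNA and direct its cleavage, and miR-10 also targets Hox mRNAs. In adults, miR-10a and miR-10b are made in many tissues, among them vessels, kidney and gut, and serum carries miRNAs shed by many cell types.

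The mature sequences show why the 4 names form 2 pairs. They are printed 5′ to 3′ from RefSeq (GRCm38.p6), where all 4 of 4 names were matched, with the seed (bases 2 to 8, which lead target pairing) in capitals.
miR-10a-5p: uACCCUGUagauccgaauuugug
miR-10b-5p: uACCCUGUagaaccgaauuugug
miR-196a-5p: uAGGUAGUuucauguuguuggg
miR-196b-5p: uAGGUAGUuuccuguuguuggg
Each seed was held by only 2 mature names in the RefSeq table. Within each pair the sequences differed at 1 base, outside the seed. Counted from 1 at the 5′ end, the change from miR-10a-5p to miR-10b-5p is U12A, and the change from miR-196a-5p to miR-196b-5p is A12C. Separating the members of a pair therefore depends on reading this base, and the number of mismatches allowed in counting is not given in the sources used here. The split of reads within a pair is uncertain to that extent.

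The genes lie in 4 different Hox clusters (GENCODE M21, GRCm38). Mir10a is at chr11:96317165-96317274 on the plus strand and overlaps no other gene. It lies 993 bp from Hoxb4 and 11044 bp from Hoxb5. Mir10b is at chr2:74726070-74726137 on the plus strand, within introns of Hoxd3 and Hoxd4 transcripts. The same miR-196a-5p is made from 2 genes. Mir196a-1, at chr11:96265164-96265265 on the plus strand, lies 6192 bp from Hoxb9, and Mir196a-2, at chr15:102973350-102973434 on the plus strand, lies in an intron of a Hoxc5 transcript between Hoxc9 and Hoxc10. Mir196b is at chr6:52230081-52230165 on the minus strand and overlaps an exon of a Hoxa9 transcript, 1032 bp from Hoxa10.

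The known miR-196 target site is shown as an example of what the pair recognises. It is in the 3′ UTR of Hoxb8, at chr11:96284888-96284909 on the plus strand, in the same cluster as Mir196a-1. The bases opposite the seed are in capitals.
Hoxb8 site: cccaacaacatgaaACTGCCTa
Of its 22 bases, 21 were complementary to miR-196a-5p, and the mismatch opposite position 5 of the miRNA allows a wobble pair. For miR-196b-5p 20 bases were complementary, with mismatches opposite positions 5 and 12. No mRNA was measured in these samples, so the site is background.

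Libraries held 1343137 to 4710263 miRNA counts. The 2 pairs were present at very different levels. Over the 20 libraries together miR-10a-5p had 477755 reads, 0.981% of all counts, and ranked 12 of the 1191 names with a read. Its partner miR-10b-5p had 207892 reads (0.427%) and ranked 22. There were 393 reads of miR-196b-5p, found in 20 of 20 libraries and ranked 273. The 15 reads of miR-196a-5p placed it at rank 622, with reads in 10 of the 20 libraries and never more than 3 in one. Within a pair, 2.30 reads of miR-10a-5p were found for each read of miR-10b-5p, and 26.2 reads of miR-196b-5p for each read of miR-196a-5p. Reads were amplified before sequencing and are not independent molecules, so intervals and limits from read numbers cover counting error only.

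The authors' deposited report on all libraries pooled gave the same picture for the Mir10a, Mir10b and Mir196b hairpins. It listed 477755 reads on the mature arm of the Mir10a hairpin and 536 elsewhere on it, and 207891 on the mature arm of the Mir10b hairpin and 68 elsewhere. The consensus mature sequence of miR-10a-5p and of miR-10b-5p in that report was 22 bases long, while the RefSeq sequence has 23. The hairpin of Mir196b had 393 mature reads and 29 others. For Mir196a-1 the report took the 3p arm as mature, with 7 of 13 reads. At Mir196a-2 it listed 15 reads on each of the overlapping hairpins.

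Levels per library are given as CPM (reads scaled to a common library size, with library sizes adjusted by TMM factors, which align the bulk of miRNAs between libraries). Within a library, serum cannot tell fewer cells of a type from less RNA per cell. For miR-10a-5p the young normal libraries had 5071, 10198, 8115, 4070 and 10684 CPM. The old normal libraries had 18316, 9866, 7620, 6518 and 8028 CPM. Both ranges overlapped, and the top of the old normal range was 1 library, replicate 1. The young dwarf libraries had 7135, 9145, 17250, 9154 and 9263 CPM. The old dwarf libraries had 16166, 8194, 8749, 14756 and 20840 CPM. The highest young dwarf value again came from a single library, replicate 3, whereas 3 of the 5 old dwarf libraries were above 14000 CPM. In all, 5 libraries exceeded 14000 CPM, and the next highest was at 10684 CPM.

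**Figure D1:**
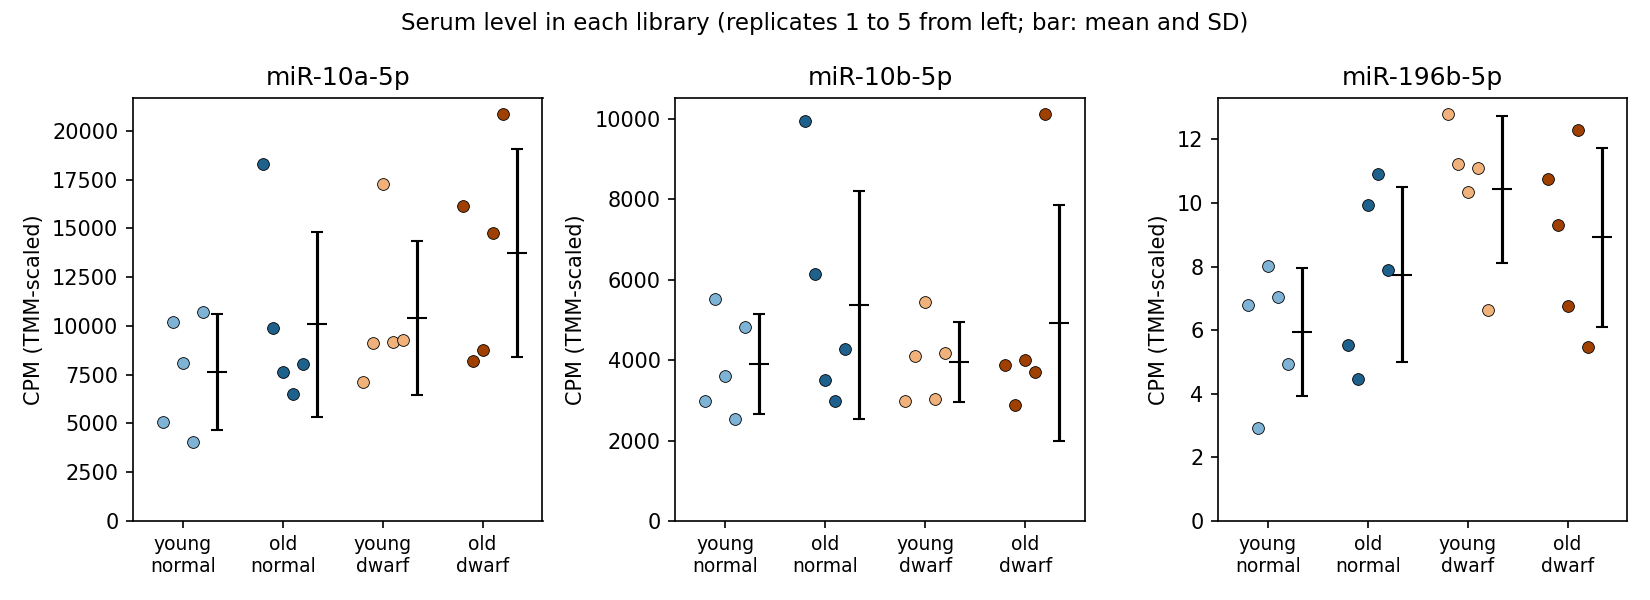
Level of miR-10a-5p, miR-10b-5p and miR-196b-5p in each library (points, CPM, each panel on its own axis) with the group mean and SD (n = 5). The ranges of all 4 groups overlap for each miRNA, and single libraries such as old normal replicate 1 (18316 CPM of miR-10a-5p) stand above the rest of their group.

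Mean levels of miR-10a-5p ran in the order young normal (7628 ± 2974 CPM, SD, n = 5), old normal (10069.5 ± 4765), young dwarf (10389 ± 3937) and old dwarf (13741 ± 5315). Neighbours in this order were closer than 1 SD. Over all 20 libraries the highest value was 5.12-fold the lowest, and the coefficient of variation was 43.7%. The median coefficient of variation of the 360 miRNAs with enough reads to test was 48.9%, so miR-10a-5p varied about as much as the typical tested miRNA.

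For miR-10b-5p the young normal libraries had 2992, 5521, 3612, 2537 and 4832 CPM. The old normal libraries had 9956, 6150, 3507, 2975 and 4284 CPM. Here too old normal replicate 1 was the highest of its group. The young dwarf libraries had 2987, 4108, 5433, 3042 and 4187 CPM. The old dwarf libraries had 3872, 2894, 4014, 3703 and 10113 CPM. One old dwarf library, replicate 5, was above the other 4, which all lay within the span of the young groups. Group means were 3899 ± 1251 CPM for young normal, 3951 ± 1004 for young dwarf, 4919 ± 2936 for old dwarf and 5374 ± 2830 for old normal mice, and neighbours differed by less than 1 SD. The highest library was 3.99-fold the lowest, with a coefficient of variation of 46.6%.

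The miR-196b-5p values rest on few reads. The young normal libraries had 14, 7, 26, 25 and 14 reads, or 6.79, 2.93, 8.005, 7.04 and 4.94 CPM. The old normal libraries had 11, 5, 25, 20 and 23 reads, or 5.53, 4.48, 9.94, 10.9 and 7.90 CPM. The young normal range lay mostly below 8 CPM and the old normal range reached past it. The young dwarf libraries had 27, 35, 28, 29 and 17 reads, or 12.8, 11.2, 10.3, 11.1 and 6.62 CPM. The old dwarf libraries had 20, 26, 12, 18 and 11 reads, or 10.8, 9.32, 6.76, 12.3 and 5.47 CPM. In young mice 4 of the 5 dwarf libraries were above every normal library, and the fifth was within the normal range. Means were 5.94 ± 2.02 CPM for young normal, 7.75 ± 2.75 for old normal, 8.92 ± 2.80 for old dwarf and 10.4 ± 2.30 for young dwarf mice, each step within 1 SD of its neighbour. The coefficient of variation was 34.4% and the range was 4.37-fold.

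The partner miR-196a-5p had 3, 0, 2, 0 and 1 reads in young normal libraries. Old normal libraries had 0, 0, 1, 0 and 0 reads, young dwarf libraries 1, 1, 0, 0 and 1, and old dwarf libraries 2, 1, 0, 0 and 2. No group stood apart at this depth. In the 10 libraries with 0 reads, a limit of 3 reads corresponds to 0.637 to 2.23 CPM without TMM factors. Its levels could not be ordered between the groups, and it was below the filter for testing. It was detected below miR-196b-5p in every library.

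Dwarf and normal mice were compared at each age with the quasi-likelihood test of edgeR, with Benjamini-Hochberg adjustment over all 360 tested miRNAs and a threshold of 0.05. Of the 4 members, 3 passed the filter on low counts and were tested. In young mice 0 of the 3 were called, where 0% of all tested miRNAs were, and DESeq2 called 6 of 356 miRNAs and no member. Ranges of the 2 groups overlapped for all 3, as they did for all but 1.94% of tested miRNAs. The log2 fold change of miR-196b-5p, dwarf over normal, was 0.80 ± 0.32 (SE), with a 95% interval of 0.13 to 1.47 and an adjusted p of 0.446 in edgeR. Its unadjusted edgeR p was 0.0224, which ranked 18 of 360, and 7.78% of all tested miRNAs had an unadjusted p under 0.05. For miR-10a-5p the log2 fold change was 0.45 ± 0.34 (-0.27 to 1.16, adjusted p 0.713 in edgeR), and it was 0.17 without young dwarf replicate 3. For miR-10b-5p it was 0.02 ± 0.36 (-0.72 to 0.76, adjusted p 0.988 in edgeR). The interval of miR-196b-5p lay above 0 before adjustment, and those of the miR-10 pair included 0.

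In old mice 0 of the 3 members were called, against 26.4% of all tested miRNAs. None had an unadjusted p under 0.05 in edgeR (45.3% of all tested did), and the ranges overlapped for all 3 (12.5% of tested miRNAs had ranges apart). The background itself was unsteady, with 95 of 360 miRNAs called in the fit used here and 51 to 143 with 1 library left out. With a haemolysis index, a measure of red-cell RNA, as a covariate 0 were called. The index did not overlap between the 2 old groups, so this fit cannot fully tell index and genotype apart. The log2 fold change of old dwarf over old normal was 0.45 ± 0.34 for miR-10a-5p (-0.27 to 1.17, adjusted p 0.318 in edgeR). Without old normal replicate 1 it was 0.79 (adjusted p 0.0961 in edgeR), and without old dwarf replicate 5 it was 0.26. For miR-10b-5p it was -0.13 ± 0.36 (-0.87 to 0.61, adjusted p 0.787 in edgeR). This value turned with single libraries, from 0.22 without old normal replicate 1 to -0.54 without old dwarf replicate 5. For miR-196b-5p it was 0.18 ± 0.33 (-0.51 to 0.86, adjusted p 0.690 in edgeR). Thus no Hox-cluster member was among the miRNAs that separated the genotypes in old age, and the intervals of all 3 still allow changes of 1.5-fold or more.

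A haemolysis index and the summed erythroid markers were set beside these groups. The index (log2 ratio of the red-cell miRNA miR-451a to miR-23a-3p) was 1.08 higher in the old dwarf libraries than in those of old normal mice (2-sided exact permutation test, adjusted p 0.0317 over 4 comparisons). It was 1.15 lower in old than in young normal libraries (exact permutation test, adjusted p 0.0476). The adjusted p was 0.0635 when any single old normal library was left out of the first comparison, and between 0.0635 and 0.0952 for most libraries left out of the second, with the same directions. In the first comparison the groups did not overlap, so p stayed the smallest possible, which is larger with 1 library fewer. The rise in adjusted p there is therefore no sign of a smaller difference. It differed by -0.05 between young dwarf and young normal libraries (exact permutation test, adjusted p 0.960). In old over young normal libraries 1 of the 5 erythroid markers was called lower (edgeR), where 15.6% of all tested miRNAs were called. The summed erythroid markers (5 names) did not order the groups as the index did. The sums ran from 230763 to 526885 CPM in young and 390367 to 581840 in old normal libraries. In dwarf libraries they ran from 207836 to 392471 (young) and 304857 to 569810 (old), with overlap in every comparison. With the index as a covariate in edgeR no member was called. In old dwarf over old normal mice miR-10a-5p was then at 0.13 instead of 0.45, and miR-196b-5p at -0.15 instead of 0.18. The SE of miR-10a-5p was 0.43 instead of 0.34 there, and index and genotype cannot be fully told apart in these 2 groups. In old over young normal mice miR-10a-5p was at 0.73 and miR-196b-5p at 0.75, and the difference of the age effects of miR-196b-5p was at -0.98. In young dwarf over young normal mice miR-196b-5p was at 0.83.

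Age was compared within each genotype. In normal mice 0 of the 3 members were called, against 15.6% of all tested miRNAs. None had an unadjusted p under 0.05 in edgeR (38.3% of all tested did) or ranges apart (7.78%). Here 56 of 360 miRNAs were called in all, 29 to 123 with 1 library left out and 1 with the haemolysis index as a covariate. The log2 fold change, old over young, was 0.40 ± 0.34 for miR-10a-5p (-0.32 to 1.12, adjusted p 0.377 in edgeR), and 0.07 without old normal replicate 1. It was 0.46 ± 0.36 for miR-10b-5p (-0.28 to 1.21, adjusted p 0.329 in edgeR), and 0.12 without the same library. It was 0.39 ± 0.33 for miR-196b-5p (-0.29 to 1.08, adjusted p 0.365 in edgeR). The 3 estimates were all above 0 and none exceeded its error by the margin the test needs. With library totals in place of TMM factors, which moved the median of all tested miRNAs to -0.42, those of the miR-10 pair were -0.17 and -0.10.

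In dwarf mice 0 of the 3 members were called, against 0.556% of all tested miRNAs. None had an unadjusted p under 0.05 in edgeR (3.89% of all tested did) or ranges apart (1.67%). The log2 fold change of old over young dwarf was 0.40 ± 0.34 for miR-10a-5p (-0.31 to 1.12), 0.32 ± 0.36 for miR-10b-5p (-0.43 to 1.06) and -0.23 ± 0.32 for miR-196b-5p (-0.90 to 0.44), each with an adjusted p of 0.997 in edgeR. Old dwarf replicate 5 carried the miR-10b-5p value, which was -0.10 without it. The difference of the age effects, dwarf minus normal, was 0.00 ± 0.49 for miR-10a-5p, -0.15 ± 0.50 for miR-10b-5p and -0.62 ± 0.46 for miR-196b-5p (adjusted p 0.889 for miR-10b-5p and 0.517 for miR-196b-5p in edgeR). Again 0 of the 3 were called, where 0.556% of all tested miRNAs were, and none had an unadjusted p under 0.05 in edgeR (15.8% of all tested did). The interval for miR-10a-5p ran from -1.01 to 1.02, so a difference in its age effect within that range was not excluded. The 4 comparisons share groups, and their values are not independent of each other.

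**Figure D2:**
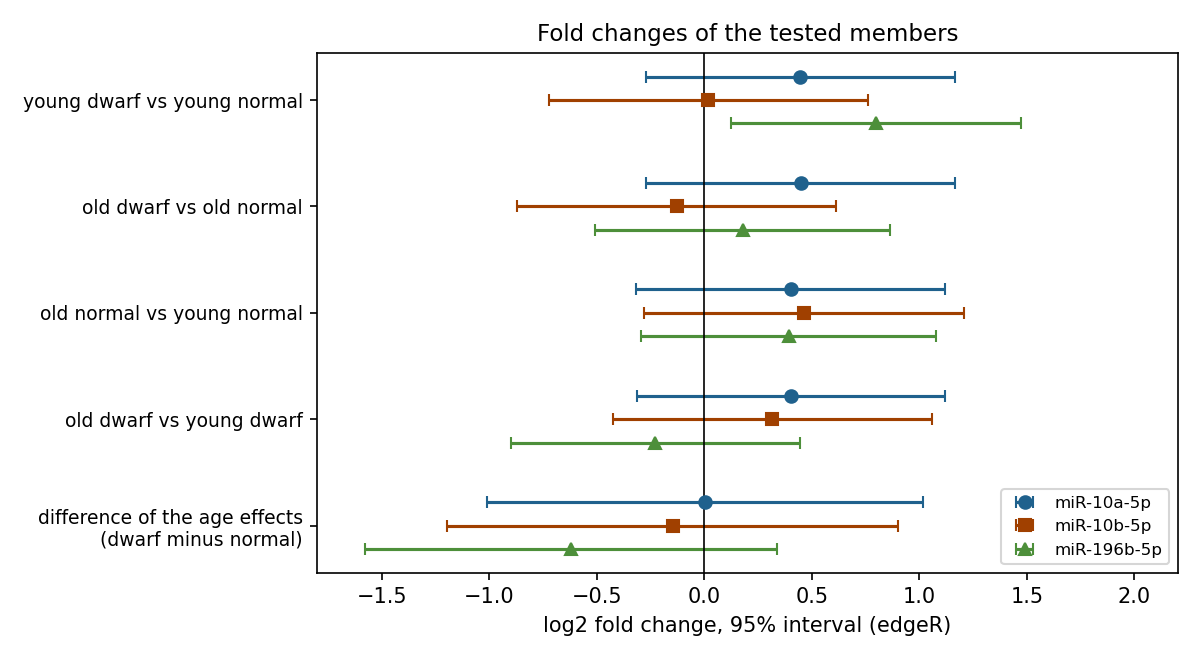
Log2 fold change (x axis) of the 3 tested members in each comparison and in the difference of the age effects, with 95% intervals from edgeR. All intervals include 0 except that of miR-196b-5p in young dwarf over young normal mice (0.13 to 1.47), whose adjusted p was 0.446.

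The balance within the miR-10 pair can be read inside each library, free of library scaling. Young normal libraries had 59.0, 54.1, 44.5, 62.3 and 45.2 reads of miR-10b-5p per 100 reads of miR-10a-5p. Old normal libraries had 54.4, 62.3, 46.0, 45.6 and 53.4. The 2 normal groups covered the same span. Young dwarf libraries had 41.9, 44.9, 31.5, 33.2 and 45.2. Old dwarf libraries had 24.0, 35.3, 45.9, 25.1 and 48.5. At each age all 5 dwarf libraries were below the median of the normal libraries and 3 of the 5 were below the lowest normal library, while the groups overlapped.

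Normal mice averaged 53.0 ± 8.02 reads per 100 when young and 52.3 ± 6.89 when old, and dwarf mice 39.3 ± 6.53 when young and 35.8 ± 11.4 when old (SD, n = 5). On the log2 scale the ratio was 0.43 lower in young dwarf than in young normal mice, a value of -0.43 (2-sided exact permutation test, p 0.0317, adjusted p 0.0794 over 4 comparisons). In old mice the difference was -0.60 (exact permutation test, p 0.0397, adjusted p 0.0794). Both missed the threshold after adjustment. Old and young normal mice differed by -0.02 (exact permutation test, adjusted p 0.960) and old and young dwarf mice by -0.18 (exact permutation test, adjusted p 0.603). With 5 against 5 libraries the smallest p possible was 0.00794. Counting error was small beside these differences, since the share of miR-10b-5p among miR-10 reads, 19.3 to 38.4% over the libraries, had a 95% Wilson interval no wider than 0.735 percentage points to either side.

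**Figure D3:**
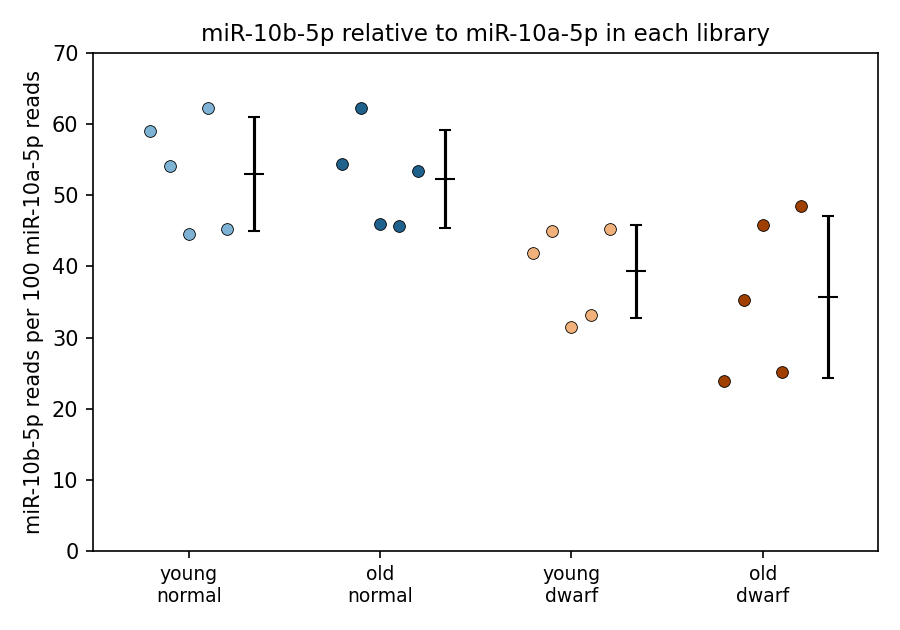
Reads of miR-10b-5p per 100 reads of miR-10a-5p (y axis) in each library (points), with the group mean and SD (n = 5). The normal libraries sit between 44.5 and 62.3 at both ages, and the dwarf libraries between 24.0 and 48.5.

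The libraries with the highest miR-10a-5p were not alike in this balance. In old normal replicate 1 and old dwarf replicate 5 both miRNAs were high, with 54.4 and 48.5 reads of miR-10b-5p per 100 of miR-10a-5p. In young dwarf replicate 3 and old dwarf replicates 1 and 4, miR-10a-5p was high and the ratio was 31.5, 24.0 and 25.1. The ratio in these 3 libraries was below that of every normal library. Hepatocyte marker miRNAs (5 names led by miR-122-5p, none at 0 in the table) summed to 22781 CPM in young dwarf replicate 3, 20951 in old dwarf replicate 4 and 20725 in old dwarf replicate 5, the 3 highest sums. In old dwarf replicate 1 the sum was 4094 CPM and in old normal replicate 1 it was 5668. By group the hepatocyte sum ran from 3021 to 6041 CPM (young) and 5668 to 12487 (old) in normal mice, and from 5596 to 22781 (young) and 4094 to 20951 (old) in dwarf mice. Over all 20 libraries the hepatocyte sum had a rho of 0.164 with miR-10a-5p and 0.146 with miR-10b-5p. Its part in the miR-10 balance was not tested.

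The balance of the miR-196 pair rested on 0 to 3 reads of miR-196a-5p. The log2 ratio of miR-196b-5p to miR-196a-5p, with 0.5 added to each count, differed by 1.14 between young dwarf and young normal and by -0.75 between old dwarf and old normal mice. All 4 comparisons had an adjusted p of 0.278 (exact permutation tests). The direction differed between the ages, and no difference was resolved at this depth.

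The opposite arms of the Mir10a, Mir10b and Mir196b hairpins were less abundant than the members. There were 553 reads of miR-10a-3p, 69 of miR-10b-3p and 29 of miR-196b-3p over all libraries, and 7 and 0 of the 3p arms of Mir196a-1 and Mir196a-2. For Mir196a-1, 6 reads of miR-196a-5p were listed, but Mir196a-2 gives the same mature sequence. These reads cannot be assigned to either gene, so the balance of arms of Mir196a-1 is not known. Per read of the 3p arm there were 864 reads of miR-10a-5p, 3013 of miR-10b-5p and 13.6 of miR-196b-5p. The 5p arm was thus the main product of these 3 hairpins in serum. The miR-10a ratio of arms averaged 740 ± 172 (young) and 816 ± 186 (old) in normal mice and 872 ± 70.1 (young) and 1149 ± 313 (old) in dwarf mice, with overlapping ranges and no test. It rests on 13 to 55 reads of miR-10a-3p per library, and the highest ratio, 1664 in old dwarf replicate 4, on 13. Another Hox-cluster hairpin, Mir615 in the Hoxc cluster, gave 165 reads of miR-615-3p and 24 of miR-615-5p. Of the 7 other Hox-locus names, 2 (miR-10a-3p and miR-615-3p) were tested, and 0 were called in any of the comparisons. The shares of all tested miRNAs called were 0% and 26.4% between genotypes in young and old mice, 15.6% and 0.556% with age in normal and dwarf mice, and 0.556% for the difference of the age effects.

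The miR-99 and miR-100 miRNAs resemble miR-10 in sequence and are shown because, outside the seed, much of their sequence is alike, while their shared seed differs from that of miR-10.
miR-99a-5p: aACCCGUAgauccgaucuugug
miR-99b-5p: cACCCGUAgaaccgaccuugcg
miR-100-5p: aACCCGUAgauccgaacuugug
Of these and their cluster mates miR-125a-5p and miR-125b-5p, 5 of 5 were tested. In old dwarf over old normal mice 1 of the 5, miR-125b-5p, was called, where 26.4% of all tested miRNAs were, at 280 ± 143 against 125 ± 41.7 CPM (log2 fold change 1.16 ± 0.43, adjusted p 0.0484 in edgeR). No other call was made among the 5 in the other comparisons, where 0, 15.6, 0.556 and 0.556% of all tested miRNAs were called. The miR-125b-5p call was lost in 15 of 28 alternative fits, with a value of 0.88 and an adjusted p of 0.140 in edgeR without old dwarf replicate 1. In old over young normal mice, miR-100-5p was at -1.44 (adjusted p 0.0653 in edgeR) and miR-125b-5p at -1.11 (adjusted p 0.0696), which missed the threshold, while the miR-10 pair had positive values there. Whether the miR-10 pair differs from the miR-100 names in these effects was not tested.

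Across the 20 libraries the members of the miR-10 pair followed each other. Spearman's rho of their log2 CPM was 0.787, and 0.826 after subtracting group means, as a description over libraries that share depth and scaling. Among 359 other tested miRNAs, those most like miR-10a-5p were miR-27b-3p (0.808), its own opposite arm miR-10a-3p (0.806) and miR-574-5p (0.794). Those most like miR-10b-5p were miR-10a-3p (0.794), miR-10a-5p (0.787) and miR-3535 (0.641). The opposite arm of miR-10a thus ranked among the 3 nearest names for both members of the pair. For miR-196b-5p they were miR-700-5p (0.737), miR-340-5p (0.603) and miR-374b-5p (0.587), and no Hox-locus name was among them. Against miR-10b-5p, miR-196b-5p had a rho of -0.593, or -0.746 after subtracting group means, and against miR-10a-5p -0.272. The lowest miR-196b-5p values stand on 5 and 7 reads, which limits how closely such a relation can be read.

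**Figure D4:**
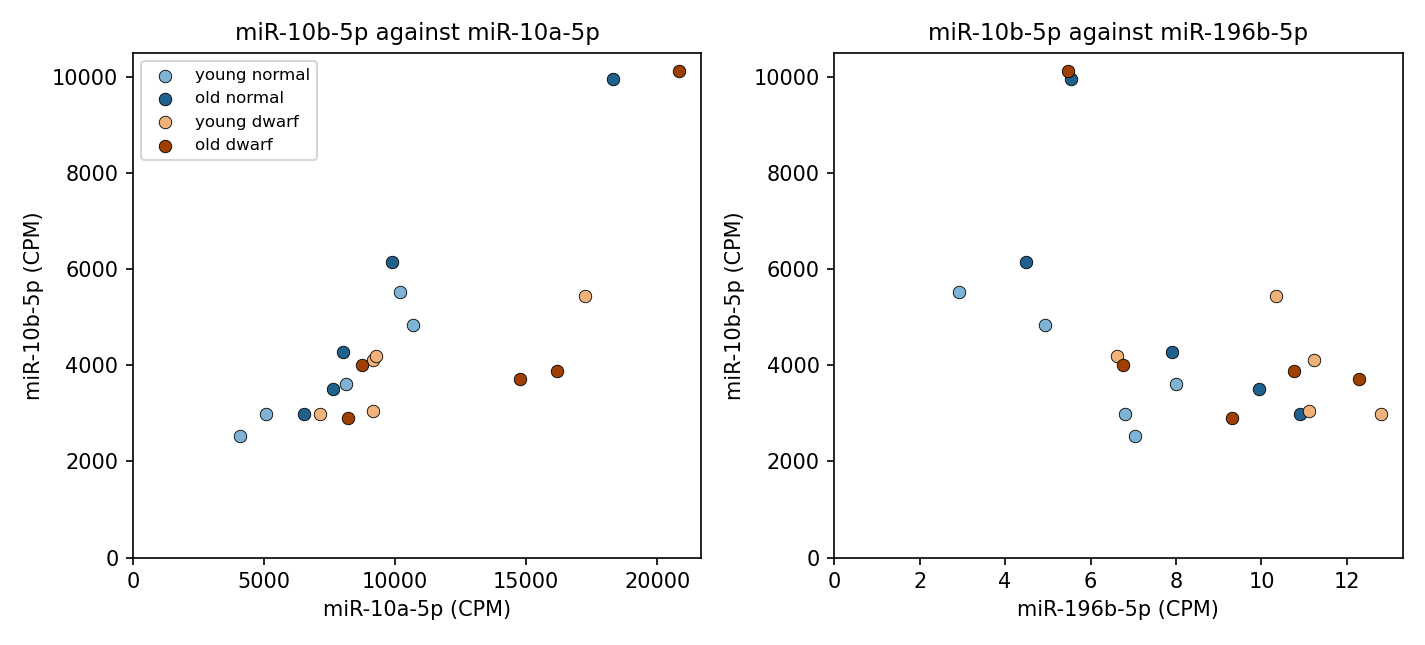
Left, miR-10b-5p against miR-10a-5p, and right, miR-10b-5p against miR-196b-5p, in each of the 20 libraries (CPM, points coloured by group). On the left the libraries rise together (rho 0.787) with 3 dwarf libraries (14756 to 17250 CPM of miR-10a-5p) below the others of high miR-10a-5p, and on the right the highest miR-10b-5p values (10113 and 9956 CPM) fall at low miR-196b-5p (5.47 and 5.53 CPM).

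Markers of cells that shed miRNAs into serum were set beside the members. Endothelial miR-126a (2 names) summed to 1433 to 2429 CPM (young) and 1561 to 2794 (old) in normal mice and 2310 to 3181 (young) and 1696 to 3130 (old) in dwarf mice, and had a rho of 0.546 with miR-10a-5p. Erythroid markers had a rho of -0.526 with miR-10a-5p, muscle markers (5 names) 0.445 and epithelial markers (7 names) 0.182. With miR-10b-5p the rho was 0.49 (endothelial), -0.377 (erythroid), 0.269 (muscle) and 0.299 (epithelial). With miR-196b-5p it was 0.165, -0.0481, -0.0647 and -0.37 in the same order. Platelet and myeloid markers (3 names) had a rho of -0.552 with miR-10a-5p, -0.281 with miR-10b-5p and -0.105 with miR-196b-5p. Lymphocyte markers (3 names) summed to 1580 to 4963 CPM in old normal libraries and to 667 to 1444 CPM in old dwarf libraries, and 3 of the 3 were called lower there (edgeR), where 26.4% of all tested miRNAs were called and 0 of 360 with the haemolysis index as a covariate. The lymphocyte sum had a rho of -0.441 with miR-10a-5p, -0.0992 with miR-10b-5p and -0.137 with miR-196b-5p. Of the 7 epithelial markers, 1 was called lower in old dwarf than in old normal libraries (edgeR), where 26.4% of all tested miRNAs were called. No marker of these lists was at 0 over all libraries. These relations describe shares of the same libraries, in which a rise of 1 class lowers the others, and their part in the member levels was not tested.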

How the data were processed

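The members and lists were chosen with earlier results of these data known. Per the labels' protocols, RNA came from a miRNeasy extraction and libraries from a TruSeq Small RNA kit. The submitters' processing notes list Bowtie 0.12.8, bedtools, edgeR and GRCm38 (mm10), with no roles. The deposited table holds read counts per mature miRNA and precursor, per the file headers, and RPM values that the authors made from them, which matched counts over column sums to within 0.005 and entered no test. Of 2241 rows, the row with the highest total was kept per name (miR-196a-5p had 2 rows). The authors' deposited report on the pooled libraries gave reads per hairpin as counts. No sample column was left unused.

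Counts (1343137 to 4710263 per library) were tested with edgeR 4.0.16 (R 4.3.3, limma 3.58.1): quasi-likelihood test, TMM factors, default filter by group with minimum count 10, 4 group coefficients, all 20 libraries sharing the spread. The filter kept 360 miRNAs and at least 99.94% of reads. The common biological coefficient of variation was 47.5%. Ratios used counts plus 0.5 and 2-sided exact permutation tests (SciPy 1.17.1), adjusted over 4 comparisons. Named miRNAs were the members, the fixed Hox-locus and miR-99, miR-100 and miR-125 lists, the 3 names most like each member by rho, and the pair of the haemolysis index. The code was tested on simulated data. DESeq2 1.42.0 was among the alternatives.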

Additional observations from a re-analysis of the deposited data

Results flagged for a closer look

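In 28 sets of 5 libraries (4 members and 3 log2 ratios, by group), 4 had 1 library far from the other 4, by a gap over 0.71 of the whole range. For normally distributed values chance gives about 1 such set in 20. This rate need not hold for CPM, or for miR-196a-5p with 0 to 3 reads. Old normal replicate 1 had 18316 CPM of miR-10a-5p, with 6518 to 9866 CPM in the others. Young dwarf replicate 3 had 17250 CPM of miR-10a-5p, with 7135 to 9263 CPM in the others. Old dwarf replicate 5 had 10113 CPM of miR-10b-5p, with 2894 to 4014 CPM in the others. Old normal replicate 3 had 0.397 CPM of miR-196a-5p, a single read, with 0 in the others. Epithelial marker miRNAs summed to 2513 CPM in old normal replicate 1, the highest of the 20 libraries, and hepatocyte markers were highest in young dwarf replicate 3 (22781 CPM). Their part in these values was not tested.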

How the results depend on the processing

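No member passed the threshold in any of 117 alternative fits (lowest adjusted p 0.137, DESeq2, miR-196b-5p in young mice) or 300 fits without 1 library (lowest 0.0961, edgeR). With library totals in place of TMM factors, miR-10b-5p was at 0.19 in old dwarf over old normal, -0.10 in old over young normal and -0.10 in old over young dwarf mice, and miR-10a-5p at -0.17 in old over young normal mice. Fitted on the 2 young groups alone, miR-10b-5p was at -0.0047. With the haemolysis index as a covariate, miR-196b-5p in old mice was at -0.15 and the age-effect difference of miR-10a-5p at -0.32. That difference was -0.012 with upper-quartile factors and -0.015 with a replicate block. After subtracting group means, 13 of 30 correlations between same-numbered libraries of different groups were over 0.1 (-0.676 to 0.808), so the replicate numbers gave no steady pairing. Between young normal and young dwarf libraries 4 of the 5 were over 0.1. The replicate block brought no member past the threshold (miR-196b-5p in young mice 0.83, adjusted p 0.483 in edgeR). The block moved all calls from 56 to 38 in old over young normal mice.

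Leaving out 1 library at a time, miR-10b-5p ranged from -0.15 to 0.18 (young genotypes), -0.54 to 0.22 (old genotypes) and -0.10 to 0.46 (dwarf age), and the age-effect difference from -0.16 to 0.34 for miR-10a-5p and -0.53 to 0.20 for miR-10b-5p. The log2 ratio of the miR-10 pair ranged from -0.49 to -0.36 in young and -0.73 to -0.47 in old genotypes (adjusted p 0.0635 to 0.159, exact permutation), and from -0.081 to 0.046 with age in normal mice. The smallest p possible is larger with 1 library fewer. In young genotypes the lower end, 0.0635, came with that smallest p, 0.0159 unadjusted (exact permutation, without young normal replicate 3). In old genotypes 0.0635 came with a larger unadjusted p, 0.0317 (exact permutation, for example without old dwarf replicate 5). It was therefore not set by the smallest p there. The adjusted p also depends on the other comparisons, so 0.0635 is no fixed limit of the test. The haemolysis index ranged from 0.78 to 1.21 (old genotypes), -1.35 to -0.85 (normal age), -0.25 to 0.16 (young genotypes) and -0.19 to 0.14 (dwarf age). The causes were not tested. Depth limits miR-196b-5p (5 to 35 reads) and miR-196a-5p (0 to 3).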
